A study of Mus musculus with 14 samples.

Results

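The genes described here encode proteins of the cardiac sarcomere, and they were followed in mouse embryonic stem cells and embryoid bodies. They are 10 genes chosen by name: the cardiac actin Actc1, the troponin subunits Tnnt2, Tnni1, Tnni3 and Tnnc1, the myosin heavy chains Myh6 and Myh7, and the myosin light chains Myl2, Myl4 and Myl7. Of the 45101 probe sets on the array, 14 belong to a single one of these genes and 2 more are shared by Myh6 and Myh7. All 10 genes passed the filter on low values, as did 14365 of the 18194 genes on the array, and 13 of the 14 single-gene probe sets did so.

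The sarcomere is the contractile unit of striated muscle. Myosin heads on the thick filament pull on actin, and the troponin complex on the thin filament lets this happen only when calcium binds troponin C, while troponin I holds contraction back and troponin T anchors the complex to tropomyosin. The heart builds its sarcomeres from isoforms that change with chamber and age: Myh6 and Myh7 encode the alpha and beta heavy chains, Myl7 and Myl4 the light chains typical of the atria, Myl2 that of the ventricles and of slow skeletal muscle, and Tnni1 the troponin I of the embryonic heart, which Tnni3 replaces later. Several of these genes are not confined to the heart. Actc1, Tnnt2 and Myl4 are also made by embryonic skeletal muscle, and Tnni1, Tnnc1 and Myh7 by slow skeletal muscle. Embryoid bodies can form beating areas, which is why these genes are common readouts of their differentiation.

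The study profiled undifferentiated embryonic stem cells (ESC) and embryoid bodies (EB), the aggregates in which such cells differentiate, in cells labelled wild type (WT) or TKO. TKO is not spelled out in the labels and is read here as loss of the 3 genes of the Rb family, Rb1, Rbl1 and Rbl2, which encode repressors of cell cycle entry. There were 3 arrays each of WT ESC and WT EB, both from the lines R1, J1 and B21, 3 arrays of TKO ESC from the lines Ta1-12, Dutch and 7-4-1, and 5 arrays of TKO EB from these lines and from 2-55-2 and 14-14-4. No treatment and no age of the embryoid bodies is given in the labels. Each line is represented by 1 array at a stage, so the spread within a group mixes differences between lines, cultures and arrays.

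To show the DNA just before the start of genes, the 250 bases before the RefSeq start site (GRCm38.p6) are printed for 4 of them. These are Actc1 and Myl7, whose windows hold a CArG box, and Tnnt2, which had the largest change in WT cells. The last is Myl2, the light chain that stayed at the ESC level in 3 of the 5 TKO EB arrays. Capitals mark the matches to every motif searched, namely the CArG box bound by serum response factor, the MEF2 site, CATTCC of the TEAD factors, AGATAA of the GATA factors and the E-box CAGCTG of the myogenic factors, all on both strands, and TATAAA on the sense strand only. Where RefSeq lists several starts, the first on the chromosome is shown.
Actc1, chr2:114052876-114053125, minus strand: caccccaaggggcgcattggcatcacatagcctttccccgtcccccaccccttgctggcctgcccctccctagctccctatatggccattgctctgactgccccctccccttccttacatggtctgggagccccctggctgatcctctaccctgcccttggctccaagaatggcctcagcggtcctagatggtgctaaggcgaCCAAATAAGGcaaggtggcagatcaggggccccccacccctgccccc
Tnnt2, chr1:135836084-135836333, plus strand: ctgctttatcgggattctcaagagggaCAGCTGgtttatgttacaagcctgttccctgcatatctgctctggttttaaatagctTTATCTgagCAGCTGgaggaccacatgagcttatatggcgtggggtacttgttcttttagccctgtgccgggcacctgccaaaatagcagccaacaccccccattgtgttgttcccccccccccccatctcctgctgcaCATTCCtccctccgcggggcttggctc
Myl7, chr11:5898783-5899032, minus strand: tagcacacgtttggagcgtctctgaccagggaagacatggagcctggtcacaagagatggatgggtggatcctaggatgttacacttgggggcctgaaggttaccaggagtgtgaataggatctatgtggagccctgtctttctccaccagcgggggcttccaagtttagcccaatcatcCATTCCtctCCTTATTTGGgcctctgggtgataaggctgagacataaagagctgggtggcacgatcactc
Myl2, chr5:122092474-122092723, plus strand: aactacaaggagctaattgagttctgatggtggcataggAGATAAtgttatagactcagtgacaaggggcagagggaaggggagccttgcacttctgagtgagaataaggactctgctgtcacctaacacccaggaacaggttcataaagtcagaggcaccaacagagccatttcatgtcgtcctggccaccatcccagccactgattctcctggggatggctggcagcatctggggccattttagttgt

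A CArG box was present in the windows of Actc1 (CCAAATAAGG, bases 47 to 38 before the start) and Myl7 (CCTTATTTGG, bases 61 to 52), against 1.47% of all 32851 windows of this length. CATTCC lay in a window of 5 of the 10 genes (Tnnt2, Tnnc1, Myh6, Myh7 and Myl7; 12.6% of all windows), CAGCTG in 3 (Tnnt2, Tnni1 and Myl2; 13%) and AGATAA in 2 (Tnnt2 and Myl2; 9.99%). Tnnt2 held CAGCTG at 2 positions, bases 223 to 218 and 157 to 152. In Myl7, CATTCC and the CArG box stand close together without overlap, at bases 70 to 65 and 61 to 52. Neither a MEF2 site (2.92% of all windows) nor TATAAA (7.59%) was found among the 14 windows of the 10 genes. The 10 genes have up to 2 windows each, so their shares are counted over genes and the background over windows.

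The arrays were close in overall level, with median intensities from 83.2 to 107.9. All values are the authors' linear intensities, which were raised to 32 where lower before taking log2. Of the targeted genes, Rbl1 was at 31.7, 15.9 and 38.3 in the EB arrays of 2-55-2, 14-14-4 and 7-4-1 and at 377 in Dutch, against 493 to 1090 in WT EB. The EB array labelled TKO Ta1-12 read 1096 for Rbl1, just above the WT EB range. In ESC, Rbl1 ran from 24.6 to 492.5 in TKO against 356 to 694 in WT, so the TKO ESC arrays also reached into the WT range. Because of the EB reading, the counts of members that passed in the comparisons that include TKO EB are also given without line Ta1-12. The counts of marker lists and of genes without overlap of arrays are given only with it. Rb1 and Rbl2 overlapped between the genotypes (300.5 to 913 in TKO EB against 407 to 1018 in WT EB for Rb1, 297 to 1099 against 723 to 1727 for Rbl2). The part of each gene that its probe set covers was not compared with the deleted part, so these values are no check of the deletion.

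In WT cells, the sarcomere genes were near or below the floor, or at a low level, in ESC and rose in EB. Of the 10 genes, 7 rose at an adjusted p under 0.05 (limma, Benjamini-Hochberg over 14365 genes) and none fell, and the median change was 4.53 on the log2 scale against 0.13 over all genes tested. Over all genes, 26.2% rose and 17.4% fell in this comparison. The genes that passed were Actc1, Tnnt2, Tnni1, Tnnc1, Myh7, Myl2 and Myl4. Tnni3, Myh6 and Myl7 did not pass (adjusted p = 0.185, 0.112 and 0.0518). The arrays of WT EB lay above all arrays of WT ESC for 9 of the 10 genes, Tnni3 being the exception, against 35.1% of all genes.

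**Figure D1:**
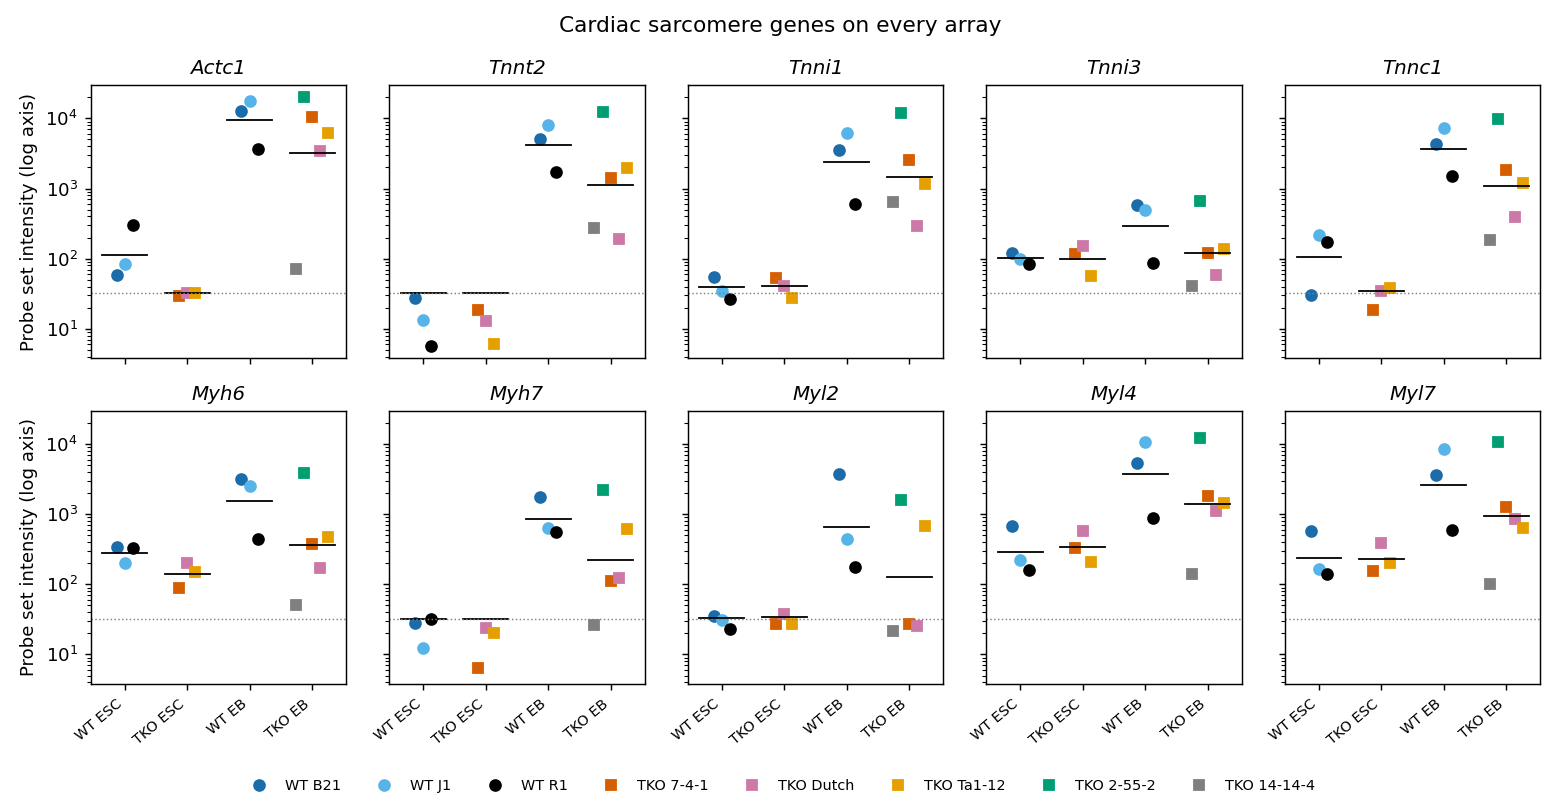
Intensity (log axis) of the 10 genes on each of the 14 arrays, with 1 point per array, circles for WT, squares for TKO and a colour per line. Horizontal bars are group means of log2 values after raising values under 32, the dotted line, to 32. In EB, 2-55-2 is the highest array for 9 of the 10 genes, and 14-14-4 is the lowest for 8.

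Among the thin filament genes, Actc1 encodes the main actin of the heart. Its intensity in WT ESC was 307 in R1, 83.9 in J1 and 57.6 in B21, and in WT EB it was 3667, 17755 and 12872 in the same order. In TKO ESC it was 32.4 in Ta1-12, 32.8 in Dutch and 28.9 in 7-4-1, and in TKO EB it was 6226, 3416 and 10558 in these lines, 19932 in 2-55-2 and 71.9 in 14-14-4. All EB arrays other than 14-14-4 were therefore far above every ESC array, and 14-14-4 stayed below the ESC arrays of J1 and R1. Actc1 rose by 6.37 ± 1.57 (log2, SE, 3 arrays against 3) in WT cells (limma, adjusted p = 0.00662) and by 6.61 ± 1.40 (5 against 3) in TKO cells (adjusted p = 0.00353).

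Tnnt2 encodes cardiac troponin T. It was below the floor of 32 in all 6 ESC arrays, between 5.72 and 27.8. In WT EB it read 1708 in R1, 8172 in J1 and 5162 in B21. In TKO EB it read 1976 in Ta1-12, 194 in Dutch, 1395 in 7-4-1, 12140 in 2-55-2 and 271 in 14-14-4. EB and ESC arrays did not overlap in either genotype, but Dutch and 14-14-4 were far below the other EB arrays. The rise was 7.02 ± 1.17 in WT cells (limma, adjusted p = 0.000856) and 5.13 ± 1.05 in TKO cells (adjusted p = 0.00285). Since the ESC values lie at the floor, both are lower than the change without a floor would be.

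Tnni1, the troponin I of the embryonic heart and of slow muscle, stood between 27.1 and 54.1 in all 6 ESC arrays. In WT EB it reached 593 in R1, 6158 in J1 and 3583 in B21, and in TKO EB 1179 in Ta1-12, 288 in Dutch, 2585 in 7-4-1, 11795 in 2-55-2 and 649 in 14-14-4. No EB array overlapped the ESC arrays, and 14-14-4 was above both Dutch and the WT array R1 here. Tnni1 rose by 5.92 ± 1.12 in WT cells (limma, adjusted p = 0.00166) and by 5.15 ± 1.00 in TKO cells (adjusted p = 0.00218).

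Tnni3, the troponin I that takes over in the maturing heart, changed least. In WT cells it was 84.7, 100.4 and 121 in ESC and 87.8, 487 and 592 in EB (R1, J1 and B21 in both). In TKO cells it was 56.8 in Ta1-12, 150 in Dutch and 116 in 7-4-1 as ESC, and 139, 58.0 and 119 as EB, with 666 in 2-55-2 and 41.0 in 14-14-4. Only J1, B21 and 2-55-2 were above every ESC array. The change was 1.54 ± 0.91 in WT cells (limma, adjusted p = 0.185) and 0.28 ± 0.81 in TKO cells (adjusted p = 0.809), and neither passed.

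Tnnc1 encodes the calcium-binding troponin C of heart and slow muscle. In WT it went from 176 in ESC to 1499 in EB in R1, from 218 to 7242 in J1 and from 30.1 to 4347 in B21. In TKO it went from 37.8 to 1204 in Ta1-12, from 34.5 to 387 in Dutch and from 18.9 to 1857 in 7-4-1, and it read 9720 in the EB array of 2-55-2 and 186 in that of 14-14-4. The value of 14-14-4 was above all TKO ESC arrays and between the WT ESC arrays of R1 and J1. Tnnc1 rose by 5.08 ± 1.19 in WT cells (limma, adjusted p = 0.00501) and by 4.98 ± 1.06 in TKO cells (adjusted p = 0.00359).

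Of the heavy chains, Myh6 encodes the fast alpha chain. In WT ESC it was 330 in R1, 200 in J1 and 342 in B21, and in WT EB 445, 2548 and 3185. In TKO ESC it was 150 in Ta1-12, 203 in Dutch and 89.3 in 7-4-1, and in TKO EB 473, 172 and 377 in these lines, 3827 in 2-55-2 and 50.8 in 14-14-4. J1, B21 and 2-55-2 stood well above the rest, R1, Ta1-12 and 7-4-1 a little above the ESC arrays, Dutch among them, and 14-14-4 below all of them. The change was 2.44 ± 1.19 in WT cells (limma, adjusted p = 0.112) and 1.36 ± 1.07 in TKO cells (adjusted p = 0.338).

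Myh7, the beta chain of embryonic ventricle and slow muscle, was between 6.49 and 32.2 in the 6 ESC arrays. In WT EB it read 559 in R1, 625 in J1 and 1784 in B21, and in TKO EB 608 in Ta1-12, 123 in Dutch, 109.7 in 7-4-1, 2194 in 2-55-2 and 26 in 14-14-4. The WT EB arrays differed by a factor of 3.19 from lowest to highest, the smallest range of any member in WT EB, and the TKO EB arrays by 84.3. Myh7 rose by 4.74 ± 1.14 in WT cells (limma, adjusted p = 0.00574) and by 2.81 ± 1.02 in TKO cells (adjusted p = 0.0461). The TKO call was lost without both arrays of line Ta1-12 (limma, adjusted p = 0.176), and also when any single array was left out other than the EB arrays of 14-14-4, Dutch and 7-4-1 (0.0512 to 0.11). It was also lost with a floor of 64 (0.121), without the filter (0.0823) and with the mean of all probe sets (0.0507). The same held for a fit without trend (0.0508) and a fit on the compared groups only (0.11).

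Of the light chains, Myl7 regulates myosin in the atria. It went from 140 in ESC to 593 in EB in R1, from 163 to 8550 in J1 and from 579 to 3642 in B21. In TKO it went from 201 to 626 in Ta1-12, from 392 to 861 in Dutch and from 154 to 1257 in 7-4-1, with 10593 in the EB array of 2-55-2 and 100.5 in that of 14-14-4. Every line with both stages had the higher value in EB, but the EB value of R1 was close to the ESC value of B21. The change was 3.48 ± 1.35 in WT cells (limma, adjusted p = 0.0518), just outside the threshold, and 2.03 ± 1.20 in TKO cells (adjusted p = 0.207).

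Myl4, the alkali light chain of atrium and embryonic muscle, moved almost in step with Myl7. Its WT values were 161, 220 and 672 in ESC and 871, 10651 and 5399 in EB (R1, J1 and B21). Its TKO values were 208, 579 and 325 in ESC and 1441, 1103 and 1821 in EB (Ta1-12, Dutch and 7-4-1), with 12247 in 2-55-2 and 141 in 14-14-4. Again every line with both stages was higher in EB, and 14-14-4 was below all ESC arrays. Myl4 rose by 3.68 ± 1.29 in WT cells (limma, adjusted p = 0.0346), whereas the TKO change of 2.02 ± 1.15 did not pass (adjusted p = 0.188). The WT call was lost without the EB array of B21 or J1 or the ESC array of J1 or R1 (limma, adjusted p = 0.0895 to 0.121), and also without the filter (0.063).

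Myl2, the regulatory light chain of the ventricle, stayed at the ESC level in 3 of the 5 TKO EB arrays. It was between 22.9 and 37.8 in all 6 ESC arrays. In WT EB it read 174 in R1, 440 in J1 and 3731 in B21, and in TKO EB 673 in Ta1-12 and 1583 in 2-55-2 but 25.6 in Dutch, 27.5 in 7-4-1 and 21.8 in 14-14-4. The latter 3 arrays were thus at the ESC level. Myl2 rose by 4.32 ± 1.47 in WT cells (limma, adjusted p = 0.0315), and its TKO change was 1.92 ± 1.32 (adjusted p = 0.274). The WT call was lost when any WT array other than the EB array of R1 was left out (limma, adjusted p = 0.0509 to 0.138). It was also lost with a floor of 64 (0.0566) and without the filter (0.0581).

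In TKO cells as a whole, 5 of the 10 genes rose (Actc1, Tnnt2, Tnni1, Tnnc1 and Myh7) and none fell, with a median change of 2.42 against 0.08 over all genes, of which 20.8% rose and 14.9% fell. All 5 also rose in WT cells. EB and ESC arrays did not overlap for 4 of the 10, Actc1, Tnnt2, Tnni1 and Tnnc1, against 21.1% of all genes. Without line Ta1-12, 4 genes rose, Myh7 being lost, and 13% of all genes did. Without the EB arrays of Dutch and 14-14-4, 8 genes rose and 25.4% of all genes. These 2 arrays had the highest levels of the pluripotency gene Pou5f1 but also the lowest median level of the members, so leaving them out favours a higher count by construction, and nothing is read from it.

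Each line measured at both stages served as its own reference. With the line as a block, 9 members rose in WT cells, Myh6 (adjusted p = 0.0349) and Myl7 (0.0134) being added, and the same 5 rose in TKO cells (limma). Of all genes, 22.9% rose in WT cells and 14.4% in TKO cells with this block. With the 6 arrays of the 3 paired TKO lines fitted alone, an alternative added after the data were seen, Actc1 and Tnnc1 rose, while Tnni1 (4.54 ± 0.63, adjusted p = 0.0538), Tnnt2 (4.66 ± 0.73, 0.058) and Myh7 (2.66 ± 0.59, 0.0757) did not pass. In that smaller fit 1.25% of all genes rose, against 20.8% in the fit of all arrays. By line, the EB minus ESC difference of Actc1 on the log2 scale was 3.58 in R1, 7.73 in J1, 7.80 in B21, 7.59 in Ta1-12, 6.70 in Dutch and 8.37 in 7-4-1. That of Tnnt2 was 5.74, 8, 7.33, 5.95, 2.60 and 5.45 in the same order. That of Myl2 was 2.44, 3.78, 6.72, 4.39, -0.24 and 0.00, so Actc1 in 7-4-1 changed more than in any other paired line while Myl2 there did not move.

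**Figure D2:**
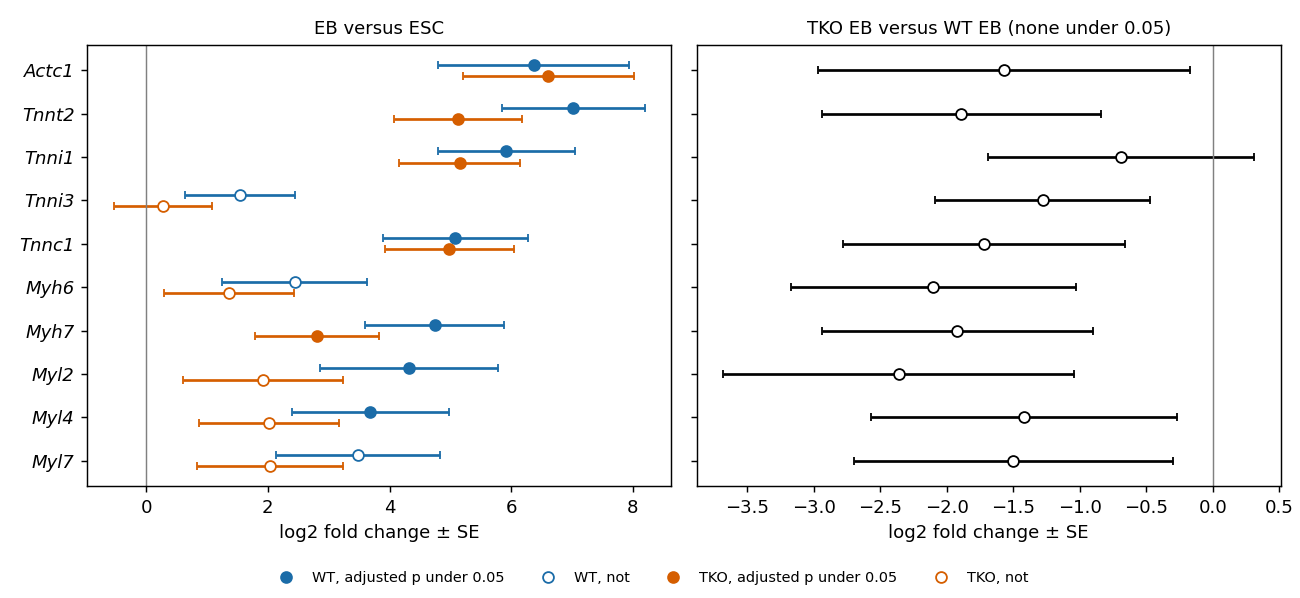
Log2 fold change with its standard error from the fit over all 14 arrays, for EB versus ESC in each genotype (left) and TKO EB versus WT EB (right). Filled points passed an adjusted p of 0.05. In WT cells 7 genes passed and in TKO cells 5, whereas no gene passed in the comparison of genotypes, where all 10 estimates lie below 0.

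The question of the design is whether differentiation without the Rb family differs. In EB, all 10 sarcomere genes had lower mean log2 values in TKO than in WT, but none passed the test (limma) and none had an unadjusted p under 0.05, against 14.2% of all genes with such a p and 0% past the adjusted threshold. The count over all genes rested on line Ta1-12: without both of its arrays 7.66% of all genes passed (1101 of 14365), and still none of the members did, with Myl2 at -2.96 ± 1.36 (adjusted p = 0.2) and Myh7 at -2.28 ± 1.09 (0.217). The median difference was -1.65 against -0.10 over all genes, of which 60.7% were below 0. The 10 genes varied together across arrays, so their signs are not independent. The WT and TKO arrays overlapped for every member, against 3.88% of all genes without overlap. The difference was -2.36 ± 1.32 for Myl2 (95% interval -5.21 to 0.50, adjusted p = 0.415), -2.10 ± 1.07 for Myh6 (-4.40 to 0.21, 0.38) and -0.69 ± 1.00 for Tnni1 (-2.85 to 1.48, 0.759), the last being the smallest of the 10. Over the 10 genes the upper bounds ran from 0.21 for Myh6 to 1.48 for Tnni1 and the lower bounds from -2.85 for Tnni1 to -5.21 for Myl2, so the data do not show that the genotypes act alike.

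The count of members that passed was 0 whichever single array was left out, but the estimates and the counts over all genes moved. Without the EB array of Ta1-12, 9.9% of all genes passed (480 higher and 942 lower in TKO), 2 members, Myl2 (-2.96 ± 1.30, adjusted p = 0.165) and Myh7 (-2.28 ± 1.04, 0.181), had an unadjusted p under 0.05, and no member passed. Without the EB array of 2-55-2, the highest for 9 genes, 8 members had an unadjusted p under 0.05, with Myl2 at -3.26 ± 1.12 and Tnnt2 at -2.75 ± 0.76, but their adjusted p was at least 0.418 (limma) and none passed, nor did any other gene. Without the WT EB array of R1, 3 members had such a p and 2 of all genes passed. Without the EB arrays of Dutch and 14-14-4, the estimates of Actc1 and Tnni1 turned to 0.21 and 0.49, and none passed. The share of all genes with an unadjusted p under 0.05 is not given for these fits. The member counts with such a p therefore have no background, and nothing is read from them. The array of 2-55-2 was the highest for 9 genes, so leaving it out lowers the TKO means by construction. Dutch and 14-14-4 had the lowest median level of the members, so leaving them out raises it.

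The change from ESC to EB did not differ detectably between the genotypes. None of the 10 genes passed the test of the difference of the changes (limma) and none had an unadjusted p under 0.05, against 3.63% of all genes and 0% past the adjusted threshold. The estimates were below 0, a smaller rise in TKO cells, for 9 of the 10 genes, against 54.9% of all genes. They ran from -2.39 ± 1.98 for Myl2 to 0.24 ± 2.11 for Actc1, with a median of -1.35 against -0.05 over all genes. The signs of Actc1 and Tnnc1 (-0.10 ± 1.59) turned under several alternatives. The intervals were wide, from -4.31 to 4.80 for Actc1. Without line Ta1-12, 5 of all genes and no member passed this test.

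In ESC, no member passed the test between the genotypes (0 passed, 0 with an unadjusted p under 0.05, against 0% and 2.74% of all genes, limma). Actc1 was the 1 gene whose WT and TKO arrays did not overlap, lower in TKO ESC by an estimate of -1.81 ± 1.57 (adjusted p = 1), against 11.5% of all genes without overlap. For Tnnt2 and Myh7 the ESC arrays were at or next to the floor in both genotypes, so no difference could be measured there.

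The sarcomere genes varied widely among EB arrays. The SD of log2 values over the 3 WT EB arrays had a median of 1.54 over the members, against 0.28 over all genes, and over the 5 TKO EB arrays 2.33 against 0.42. The range within a group was widest for Actc1 in TKO EB, where the highest array was 277 times the lowest. Array by array, the median rise over the mean of the 6 ESC arrays was 5.98 in B21, 5.14 in J1 and 3.13 in R1 among WT, and 5.83 in 2-55-2, 4.28 in Ta1-12, 2.49 in 7-4-1, 1.92 in Dutch and -0.03 in 14-14-4 among TKO. All 10 members were above every ESC array in B21, J1 and 2-55-2, 9 were in R1 and Ta1-12, 8 in 7-4-1, 7 in Dutch and 2, Tnnt2 and Tnni1, in 14-14-4. The values in 14-14-4 show that the 10 genes did not all stay low together there: Tnni1 and Tnnt2 were 4.01 and 3.08 above the ESC mean while Actc1 was at 0.24.

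**Figure D3:**
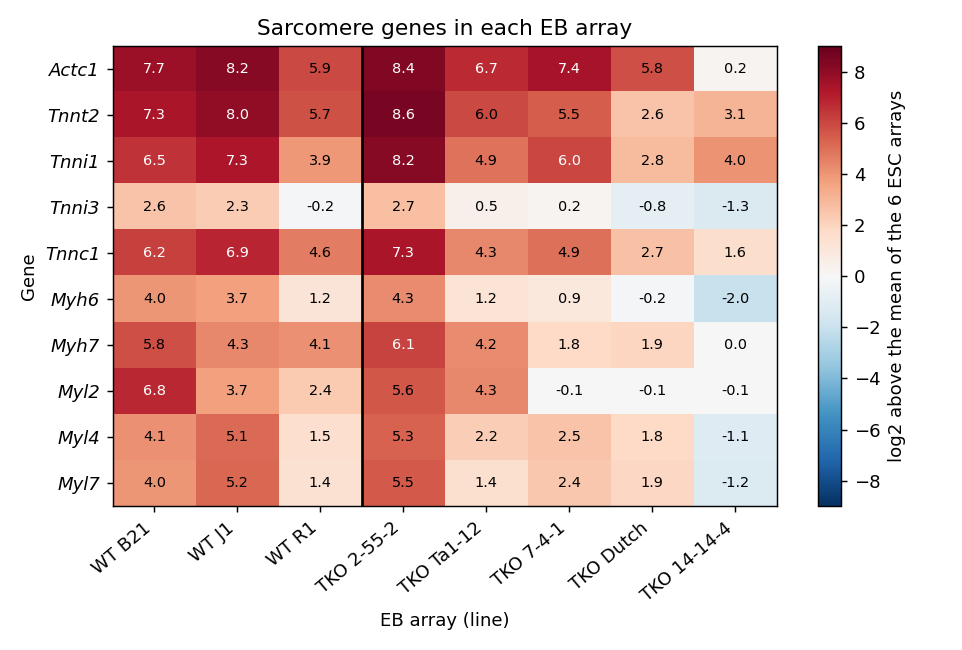
Log2 intensity of each gene in each EB array minus its mean over the 6 ESC arrays, with the value printed in each cell and the vertical line parting WT from TKO. Red is higher and blue is lower than the ESC mean. The column of 14-14-4 is near 0 or below except for Tnnt2, Tnni1 and Tnnc1, and Myl2 is near 0 in 7-4-1, Dutch and 14-14-4.

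Pluripotency markers varied among the same arrays. Pou5f1, the transcription factor that marks undifferentiated cells, was 32.8 to 55.2 in WT EB and 17.1 in Ta1-12, but 146.8 in 7-4-1, 1542 in 2-55-2, 6133 in 14-14-4 and 7410 in Dutch. Dutch and 14-14-4 thus combined the highest Pou5f1 with the lowest sarcomere levels, while 2-55-2 had the third highest Pou5f1 and the highest sarcomere levels. The summed intensity of the 8 pluripotency markers was 3563 to 4450 in WT EB, 4774 to 72653 in TKO EB and 73068 to 97577 in ESC. All 8 fell in WT EB and 5 of 8 in TKO EB (limma), against 17.4% and 14.9% of all genes. In TKO EB versus WT EB all 8 were higher in TKO, with a median of 3.33 against -0.10 over all genes. Of these, 7 had an unadjusted p under 0.05 (limma), against 14.2% of all genes. None passed (Pou5f1 4.28 ± 1.42 and Sox2 1.06 ± 0.27, both with an adjusted p of 0.303). Their part in the result was not tested. In RNA from whole cultures, fewer muscle cells and less RNA per cell cannot be told apart.

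Whether the 10 genes stood for heart muscle was checked against markers of heart and of skeletal muscle. Skeletal muscle markers were high in the same EB arrays that were highest for the sarcomere genes. Myog, a transcription factor of skeletal muscle that the heart does not use, was 8799 in 2-55-2, 5464 in J1, 2316 in 7-4-1, 816 in B21, 298 in Ta1-12, 117 in R1, 38.8 in Dutch and 13.5 in 14-14-4, against 13 to 30 in ESC. Myod1, another such factor, was 2687 in 2-55-2, 1855 in J1 and 21.9 to 381 in the other 6. Myh3, the embryonic skeletal heavy chain, was 9574 in 2-55-2, 7273 in J1 and 9.79 in 14-14-4. The summed intensity of 20 skeletal muscle genes was 3353 to 53578 in WT EB, 2163 to 78206 in TKO EB and 2704 to 3991 in ESC. In R1, Dutch and 14-14-4 it lay inside or below the ESC range, at 3353, 2934 and 2163. The ESC sums rest in large part on Mylpf (1084 to 2568), which was 465 in R1, so the sum can hide rises of other genes. In R1, 12 of the 20 genes were above the 40th percentile of the array, against 7 to 9 in ESC, 10 in Dutch and 8 in 14-14-4. Tnnt3 was 262 in R1 and at most 20.9 in ESC. Of the 16 skeletal genes tested, 3 rose in WT EB (limma), namely Tnnt3 (4.32 ± 0.98, adjusted p = 0.00418), Myl1 and Tnni2. In TKO EB 2 rose, Tnnt3 and Tnni2. Over all genes 26.2% rose in WT EB and 20.8% in TKO EB, so neither count is above the background. The median change of the 16 was nevertheless 2.73 in WT and 1.58 in TKO cells, against 0.13 and 0.08 over all genes. Markers of adult fibres or of muscle stem cells differed among themselves: Myh1, an adult fast heavy chain, was 570.5 in 2-55-2 and 541 in J1 and 7.23 to 93.0 in the other 6, against 6.48 to 18.1 in ESC, while Myh2, Myh4, Myf6 and Pax7 were under 90 in every EB array. The part of skeletal muscle in the levels of the sarcomere genes was not tested.

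Heart markers outside the sarcomere gave a mixed picture. Their counts stand against 26.2% of all genes that rose in WT EB and 20.8% in TKO EB. Of 11 cardiac transcription factors tested, 7 rose in WT EB and 7 in TKO EB (limma), among them Hand2 (5.42 ± 0.50 in WT, 4.77 ± 0.44 in TKO), Tbx20 (3.64 ± 0.47 and 3.66 ± 0.42), Isl1 (4.83 ± 0.60 and 4.22 ± 0.53) and Gata6 (5.96 ± 0.82 and 4.66 ± 0.73), none of which is limited to heart. Nkx2-5, the factor most closely tied to heart muscle, was low throughout, at 42.0 to 192 in EB against 63.9 to 81.1 in ESC. Nppa, the atrial natriuretic peptide, was 77.1 to 258 in EB against 62.5 to 111 in ESC. Both natriuretic peptide genes rose in WT EB (Nppa 1.05 ± 0.38, adjusted p = 0.0407, and Nppb 2.21 ± 0.79, 0.0382) and neither passed in TKO EB. Of 10 calcium handling genes, 5 rose in WT EB, among them the ryanodine receptor Ryr2 (2.28 ± 0.52, adjusted p = 0.00465), Cacna1c (2.01 ± 0.53), Slc8a1 (2.20 ± 0.68) and Casq2 (3.26 ± 1.09), and 1 rose in TKO EB, Jph2 (2.46 ± 0.57, adjusted p = 0.00542).

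Of 20 further sarcomere genes tested, 9 rose in WT EB and 4 in TKO EB (limma), against the same background of 26.2% and 20.8%. Their median change was 2.35 in WT and 1.37 in TKO cells. The 4 with the smallest adjusted p in WT cells were the Z-disc gene Nebl (3.40 ± 0.61), Ankrd1 (4.37 ± 0.82), Mybpc3, the cardiac myosin binding protein (2.33 ± 0.49), and Myl3, the ventricular and slow alkali light chain (3.88 ± 0.90). In TKO cells these were Tpm1 (2.26 ± 0.49), Ankrd1 (3.16 ± 0.73), Nebl (1.84 ± 0.55) and Myl3 (2.32 ± 0.81). None of the 20 passed in TKO EB versus WT EB, where Mybpc3 (-1.60 ± 0.44) and Nebl (-1.71 ± 0.55) both had an adjusted p of 0.303.

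The EB arrays differed in which muscle genes were high. R1 and Ta1-12, with Myog of 117 and 298, had the highest values of the endoderm and heart factor Gata4 (4299 and 1231, against 150 to 535 in the other 6), and Myl3 was 4743 and 1828 there. B21, with Myog of 816 and Gata4 of 535, had Myl3 of 2158, above Ta1-12, and the highest Myl2 (3731), so the arrays do not part cleanly by these genes. J1 and 7-4-1, with Myog of 5464 and 2316, had Myl3 of 371 and 272. Dutch and 14-14-4, with the lowest Myog (38.8 and 13.5), had Myl3 of 190 and 270, so low Myl3 did not track high Myog. In 7-4-1, Actc1 (10558) exceeded the value of R1 (3667), while Myh7 (109.7) and Myl2 (27.5) were below theirs in R1 (559 and 174). The array of 2-55-2 had the highest Myog (8799) and Actc1 (19932), with Gata4 at 415 and Myl3 at 984. Gata4 did not stand for the cardiac transcription factors. Gata6 (5417 and 4006) and the endoderm genes Sox17 (9814 and 4731) and Foxa2 (3823 and 1838) were also highest in R1 and Ta1-12. Nkx2-5 (192 and 160), Mef2c (2178 and 3058), Isl1 (2375 and 1558) and Smyd1 (169 and 203) were highest in J1 and 2-55-2. Nkx2-5 was 63.3 in R1 and 65.7 in Ta1-12. The other cardiac factors followed neither order. These arrays were described after their values were seen, and no test was made of them.

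**Figure D4:**
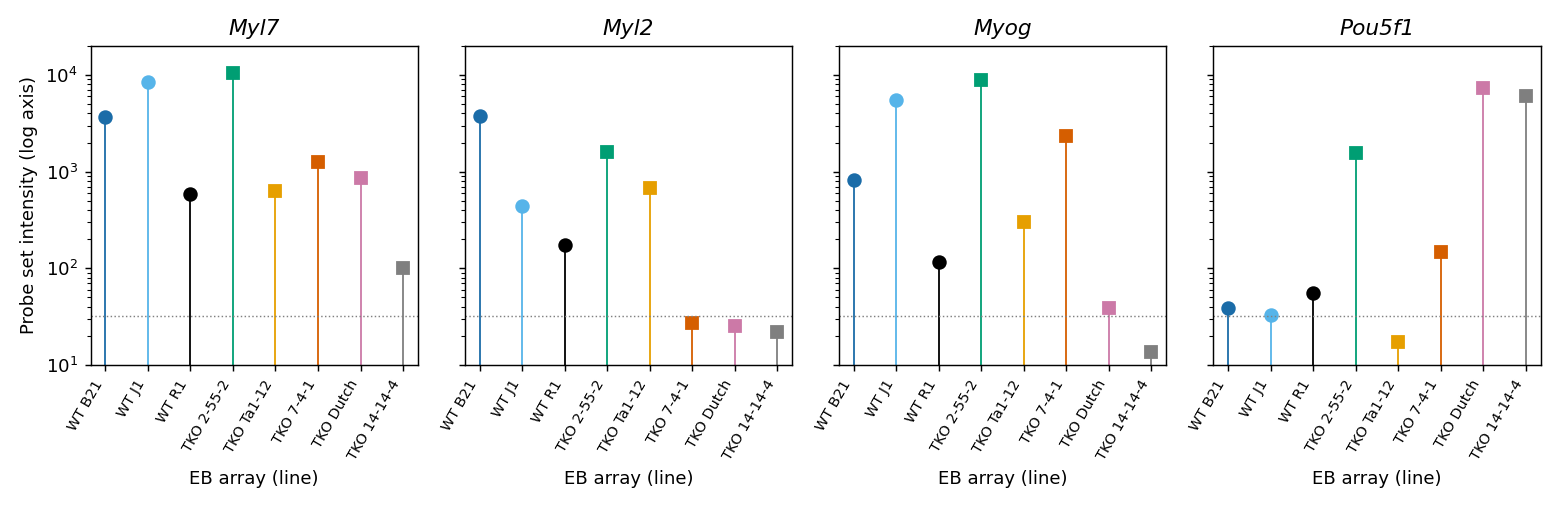
Intensity (log axis) in each of the 8 EB arrays of Myl7, Myl2, the skeletal muscle factor Myog and the pluripotency factor Pou5f1; circles are WT, squares TKO, and the dotted line is the floor of 32. Myl2 is below the floor in 7-4-1, Dutch and 14-14-4 while Myl7 is at 1257, 861 and 100.5 there, and Pou5f1 is highest in Dutch and 14-14-4.

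Pairs of isoforms were compared within an array, as the difference of 2 log2 intensities, and only the change of this difference between arrays was read. Myl2 minus Myl7 was 0.03 in B21, -1.77 in R1 and -4.28 in J1, and 0.10 in Ta1-12, -1.65 in 14-14-4, -2.74 in 2-55-2, -4.75 in Dutch and -5.30 in 7-4-1. The difference between TKO and WT EB was -0.86 (means -2.87 ± 2.22 SD, n = 5, and -2.01 ± 2.17, n = 3; exact two-sided permutation p = 0.589, adjusted over 3 pairs 0.661). Tnni3 minus Tnni1 was -3.60 ± 0.88 in TKO and -3.00 ± 0.57 in WT EB (exact permutation p = 0.268, adjusted 0.661), and Myh6 minus Myh7 was 0.67 ± 0.77 and 0.84 ± 1.18 (exact permutation p = 0.661, adjusted 0.661). With 5 arrays against 3 this test cannot go below 0.0179. For none of the 3 pairs was a difference between the genotypes larger than the spread of the arrays detected. In 7-4-1, Dutch and 14-14-4 Myl2 is under the floor, so 3 of the 5 TKO values of Myl2 minus Myl7 are set by Myl7 and the floor, and in these arrays the difference without a floor would be lower.

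Across the 8 EB arrays, the log2 values of the members moved together, with Pearson's r between 0.587 (Actc1 and Myl2) and 0.992 (Myl4 and Myl7) over the 45 pairs and a median of 0.865. The arrays come from the same lines and both genotypes, and the r values are descriptive. The light chains typical of the atrium formed the tightest pair, followed by Tnni3 and Myh6 at 0.979, whereas Myl2 reached 0.66 with Myl7. Outside the muscle lists, the genes whose pattern was most like the mean of the 10 scaled members were Gatm (r = 0.988), which makes a precursor of creatine, Sptbn1 (0.957), Tm6sf1 (0.954), Sh3bgr (0.953), the Z-disc gene Synpo2l (0.952), the dystrophin partner Sntb1 (0.949), the RNA-binding splicing factor Rbm24 (0.942) and Chrnb1 (0.942), a subunit of the acetylcholine receptor of skeletal muscle. Gatm ran from 41.6 to 426 over the EB arrays and Rbm24 from 41.6 to 2130. Without the arrays of 2-55-2 and 14-14-4, the 2 farthest from the median, r was 0.992 for Gatm and 0.85 for Rbm24. Of 14365 genes, 57 had r over 0.9. On the muscle lists, Acta1, the skeletal actin (0.983), Csrp3 (0.982), Myoz2 (0.974) and Myom1 (0.97) were most alike.

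Where a gene had several probe sets, they did not always move alike. The second probe set of Tnnt2 rose like the first, by 6.54 ± 1.19 in WT and 4.83 ± 1.06 in TKO cells (limma over probe sets, adjusted p = 0.0014 and 0.00427), while the third stayed between 21.1 and 84.3 on all arrays and changed by 0.78 ± 0.34 (adjusted p = 0.0803) and 0.00 ± 0.30 (0.999). The second probe set of Myl4 stayed between 47.1 and 139 and changed by 0.49 ± 0.28 (adjusted p = 0.179) and 0.15 ± 0.25 (0.664). The second probe set of Myh6 was between 6.98 and 73.8 and failed the filter, but its 3 highest values were again in B21, 2-55-2 and J1. Myh6 and Myh7 lie next to each other in the genome, and 2 probe sets match both. The brighter of these was 272 in R1, 1005 in J1 and 1726 in B21 among WT EB, and 277 in Ta1-12, 64.6 in Dutch, 128 in 7-4-1, 2095 in 2-55-2 and 20.3 in 14-14-4 among TKO EB. Its order of arrays was that of Myh6, and it changed by 3.09 ± 1.17 in WT cells (adjusted p = 0.0505) and 1.71 ± 1.05 in TKO cells (0.221). The labels do not say which part of a transcript each probe set covers.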

How the data were processed

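Per the labels' protocols, RNA isolated with Trizol was biotin-labelled for Affymetrix arrays. The deposited values are linear intensities, 1 per probe set, as the authors had summarised them. Background correction, scaling, summary method and genome build are not given in the sources used here. Values were not rescaled. They were raised to a floor of 32 and put on the log2 scale. Of 45101 probe sets, 34958 have 1 gene symbol in the platform annotation, 932 several and 9211 none, and all 14 probe sets of a single member kept their symbol in the RefSeq gene table. The probe set with the highest mean stood for a gene, and genes above the 40th percentile on at least 3 arrays were tested. Groups came from the titles. All 14 arrays entered a single limma fit with a mean for each group (limma 3.58.1, R 4.3.3; lmFit and eBayes with trend), with Benjamini-Hochberg adjustment in each of 5 comparisons. Errors are standard errors of this fit, and the number of arrays limits the precision. The procedure was tested on simulated data.

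The same line was measured at both stages for 6 lines, which pairs those arrays. Between the stages, a line's departures from its group means correlated at -0.046 in B21, -0.078 in J1, -0.037 in R1, 0.066 in 7-4-1, 0.196 in Dutch and 0.09 in Ta1-12. Replicates are different lines, described as biological by the submitters.

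The text names all 10 members, up to 4 genes of each marker list with the smallest adjusted p in the comparison described, the 8 genes outside the muscle lists most like the members over the 8 EB arrays, and the Rb family. Other genes, such as Myog, Nkx2-5 and Gata4, were singled out from the marker lists after their values were seen. The members and lists were chosen with earlier results of these data known. Promoter windows are from RefSeq, GRCm38.p6. The alternatives changed the floor, scaling, filter, probe set, block, spread, weights and arrays.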

Additional observations from a re-analysis of the deposited data

How the results depend on the processing

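With the line as a replicate block, 9 members rose in WT cells and 5 in TKO cells (limma), and with the line as a random block 8 and 5, against 7 and 5 without one. Of all genes, 22.9% and 14.4% rose with the replicate block and 26.8% and 21.2% with the random block, against 26.2% and 20.8%. With the replicate block on the TKO arrays alone, chosen after seeing the data, 2 rose in TKO cells, with 1.25% of all genes, and without the EB arrays of Dutch and 14-14-4, 8 did, with 25.4%. When 1 array was left out, 5 to 9 members rose in WT cells and 4 to 6 in TKO cells. The share of all genes that rose then ran from 19.7% to 28.6% in WT cells and from 14.9% to 24.2% in TKO cells. Array weights gave 10 in WT cells, where the share of all genes that rose also went from 26.2% to 34.5%, and no filter gave 5, with 19.7%. The member counts of 0 in the other comparisons stayed 0 in every alternative run, but over all genes 1101 passed in TKO EB versus WT EB without line Ta1-12 and 1422 without its EB array, and 697 in TKO ESC versus WT ESC with array weights. Under quantile normalization the median change of all genes in WT cells moved from 0.13 to -0.07 and the calls over all genes from 3767 higher and 2493 lower to 3027 and 3478, while the same 7 members rose. Other signs turned. Tnni3 in TKO cells was -0.02 with the fixed replicate block and also on TKO arrays alone, -0.17 without line Ta1-12, and -0.33 to 0.67 leaving out 1 array. The difference of the changes was 0.12 (floor of 16), 1.34 (array weights) and 1.25 (without Dutch and 14-14-4) for Tnnc1, -0.69 (floor of 64) and -0.02 (log2 of value + 16) for Actc1, and 0.41 for Tnni1 and 0.22 for Myh6 without Dutch and 14-14-4. Leaving out 1 array it was -0.89 to 0.77 for Tnnc1 and -0.47 to 1.61 for Actc1. TKO EB versus WT EB was 0.31 for the second probe set of Myl4, 0.21 for Actc1 and 0.49 for Tnni1 without Dutch and 14-14-4, and -1.68 to 0.01 for Tnni1 leaving out 1 array. The TKO minus WT difference of Myh6 minus Myh7 was 0.71 with the mean of probe sets, 0.09 without line Ta1-12 and -0.76 to 0.42 leaving out 1 array, and that of Myl2 minus Myl7 was -2 to 0.16. The cause of these shifts was not tested.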

Other observations

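Other cell types were described by marker lists in the same fits (limma), in which 26.2% of all genes rose in WT cells and 20.8% in TKO cells. All 7 fibroblast markers rose in both genotypes, among them Col3a1 (8.45 ± 0.41 in WT and 8.68 ± 0.36 in TKO cells), with summed intensities between 90641 and 104511 in WT EB and between 26538 and 109835 in TKO EB. All 5 visceral endoderm markers rose in both, among them Ttr (8.15 ± 0.53 and 7.20 ± 0.48) and Afp (8.53 ± 0.70 and 7.48 ± 0.63). Of 9 smooth muscle markers, 6 rose in WT and 5 in TKO cells, among them Actg2 (6.32 ± 0.58 and 4.58 ± 0.52) and Mylk (6.54 ± 0.71 and 5.03 ± 0.64). Of 4 endothelial markers tested, 2 rose in WT and 1 in TKO cells, with Kdr rising in both (2.39 ± 0.57 and 2.30 ± 0.51). Kdr did not stand for this list, as 1 of the 4 estimates was below 0 for WT and 2 for TKO. Pecam1 had negative estimates for both genotypes (-2.85 ± 1.15 for WT, -1.91 ± 1.02 for TKO), and neither passed. Of 5 neural markers, 0 passed in WT cells, where 0 also had an unadjusted p under 0.05. In TKO cells 1, Nes, rose (2.23 ± 0.79, limma, adjusted p = 0.0428), and the estimates of 2 of the 5 were below 0. Nes was highest in the EB arrays of 2-55-2 (2927) and J1 (2178) and was 567 in 7-4-1. Sox1, Pax6, Tubb3 and Map2 were highest in 7-4-1 (310.5, 462, 2776 and 3029), so Nes did not stand for the list. No gene on these lists passed in TKO EB versus WT EB with all lines included. There 3 smooth muscle, 1 visceral endoderm and 1 endothelial marker had an unadjusted p under 0.05 (limma), against 14.2% of all genes.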
